A study of Mus musculus with 15 samples.

Results

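The 9 glycosyltransferase genes described here are Ugcg, St3gal5, St8sia1, B4galnt1, B3galt4, St3gal2, St8sia5, St8sia3 and Fut9. They encode enzymes that build gangliosides and related neural glycans, and they are 9 of 39179 gene identifiers in the count table. Of these, 7 (Ugcg, St3gal5, St8sia1, B3galt4, St3gal2, St8sia5 and St8sia3) are listed for their function in the pathway. That list was drawn up with earlier results of these data known. B4galnt1 was chosen by its measured read counts, which were higher in injured knockout than in injured control ganglia of these libraries, and Fut9 was listed beside it with results of these data known. For these 2 genes the levels and fold changes below are therefore a description, with no test. All 9 passed the filter on low counts and are among the 16976 genes tested.

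The tissue was lumbar 4 to 6 dorsal root ganglia (DRG), the ganglia that hold the cell bodies of sensory neurons, taken whole from mice aged 3 to 6 months on a mixed background that is mainly C57bl6. Knockout mice carried Wnt1-Cre and 2 floxed alleles of the miR-183 cluster (Wnt1-Cre; mirflox/flox), so the deletion follows Wnt1-Cre, which is active in neural crest and its derivatives, and therefore in sensory neurons and ganglion glia alike. Controls carried Wnt1-Cre without the floxed alleles or were wild type (wt). Naive mice gave 5 control libraries (4 Wnt1-Cre, 1 wt) and 4 knockout libraries. Mice with spared nerve injury (SNI) gave 3 control libraries (1 Wnt1-Cre, 2 wt) and 3 knockout libraries. In this model of neuropathic pain the tibial and common peroneal branches of the sciatic nerve are ligated and cut, and the sural branch stays whole. Each library came from 1 animal. The time after injury is not given in the sources used here. Animal numbers ran from 948 to 956 in the injured knockout group, from 974 to 976 in the injured control group and from 1041 to 1082 in the naive groups, so the order of the animals cannot be told apart from injury, nor, among injured mice, from genotype.

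Gangliosides are sialic acid-bearing glycolipids of the neuronal plasma membrane. Ugcg adds glucose to ceramide, the first committed step. After a galactose is added, St3gal5 makes GM3, and St8sia1 adds a further sialic acid to make GD3. B4galnt1, the GM2/GD2 synthase, adds N-acetylgalactosamine and so opens the branch to the complex gangliosides of nerve. B3galt4 then makes GM1 and GD1b, St3gal2 is one of the enzymes that add the terminal sialic acid of GD1a and GT1b, and St8sia5 adds further sialic acids in the more highly sialylated series. St8sia3 extends sialic acid chains on glycolipids and glycoproteins. Fut9 is a fucosyltransferase that makes the Lewis X epitope, a glycan of the nervous system that is not a step of ganglioside synthesis.

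The deleted cluster encodes miR-183-5p, miR-96-5p and miR-182-5p. A microRNA pairs with messenger RNA through its seed, bases 2 to 8, and an 8mer match is the reverse complement of the seed followed by an A. The 3 mature sequences, from RefSeq on GRCm38.p6, are shown because their seeds define the matches searched in the 9 genes, with the seed in capitals. All 3 lie on the minus strand of chromosome 6, miR-183-5p at chr6:30169711-30169732, miR-96-5p at chr6:30169506-30169528 and miR-182-5p at chr6:30165962-30165986.
miR-183-5p: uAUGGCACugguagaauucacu
miR-96-5p: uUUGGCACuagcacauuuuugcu
miR-182-5p: uUUGGCAAugguagaacucacaccg
No 2 of the 3 share a whole seed. The 8mers searched on the transcript strand were GTGCCATA for miR-183-5p, GTGCCAAA for miR-96-5p and TTGCCAAA for miR-182-5p.

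An 8mer was present in 4 of the 9 genes, in the longest annotated 3′ UTR of a protein-coding transcript. They were B4galnt1 (1 for miR-96-5p), St8sia3 (2 for miR-96-5p), St8sia1 (1 for miR-182-5p) and St8sia5 (1 for miR-182-5p). Among the 14451 tested genes with such a UTR, 9.33% had an 8mer of any of the 3 microRNAs, and long UTRs held them more often. Of tested genes whose UTR was of like length (the shorter at least 0.8 times the longer), the share with an 8mer was 3.34% for B4galnt1, 20.7% for St8sia5, 33.3% for St8sia1 and 35.2% for St8sia3. B4galnt1 held its match in a UTR of 497 bases, a length at which 1.07% of genes hold a miR-96-5p 8mer, whereas the UTRs of St8sia1 and St8sia3 ran to 7239 and 7815 bases. The limit to protein-coding transcripts was set after the longest UTR of B4galnt1 was seen. Shares at like length were not computed for other UTR choices, and B4galnt1 was chosen by its counts, so its shares are a description. Ugcg, St3gal5, B3galt4 and St3gal2 had no 8mer. Fut9 had no 8mer in a UTR of 10401 bases, a length at which 51.1% of 94 genes have one. It had 4 matches to seed bases 2 to 8 without the A (7mer-m8) and 8 to bases 2 to 7 with the A (7mer-A1). The 7mer-A1 letters TGCCAAA are common to miR-96-5p and miR-182-5p, so 3 positions in Fut9 were counted for both.

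The windows below show the 8mers of B4galnt1 and, for comparison, of St8sia1, together with those of Chst10 and Slc35a1, 2 genes of the wider pathway described later. Capitals mark the match. The matches begin 287 bases after the stop codon in B4galnt1 (chromosome 10), 3282 in St8sia1 (chromosome 6), 3794 in Chst10 (chromosome 1) and 424 in Slc35a1 (chromosome 4).
B4galnt1, miR-96-5p: ggttcactttccaaGTGCCAAAga
Chst10, miR-96-5p: aagatttaaaatgtGTGCCAAAtc
Slc35a1, miR-96-5p: gtctgagggttacaGTGCCAAAgc
St8sia1, miR-182-5p: tgactcttagtgctTTGCCAAAgt
B4galnt1 also had a 7mer-m8 of miR-96-5p, 225 bases after the stop codon, in the window tccccccacagccaGTGCCAAgtc. A match in these letters is a description and does not show that the site is used.

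Library totals were 8778016 to 10754866 counts in naive controls, 7589426 to 10289398 in naive knockouts, 5252920 to 9615223 in injured controls and 8075133 to 10822762 in injured knockouts. The shallowest library, wt control SNI replicate 23, also had a mitochondrial share of 7.43% against 2.26% to 3.6% in the other 14, so values without it are given beside the results of B4galnt1, Fut9 and the genes it moves. The deleted microRNA genes themselves are too short for this assay to check the deletion: Mir183, Mir96 and Mir182 had 0, 1 and 2 counts over all libraries. All 8 nerve injury genes examined, among them Atf3, rose after SNI in both genotypes. None of the 14 sensory neuron markers was at 0 in any library, and their summed level spanned 20284 to 25114 CPM. The 12 macrophage markers summed to 160 to 188 CPM in naive controls, 188 to 289 in naive knockouts, 248 to 456 in injured controls and 318 to 403 in injured knockouts, and none was at 0. The 8 skeletal muscle markers summed to at most 345 CPM outside the injured knockout group, where they reached 155 to 1204 CPM, and 2 of them, Myh1 and Myh2, were at 0 in some libraries. The part of these cells in the results below was not tested. In whole ganglia, fewer cells of a type and less RNA per cell cannot be told apart.

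Levels are CPM, read counts divided by library size after scaling by TMM, a between-library normalisation. Between genes they are compared per kilobase of annotated exon. In naive control ganglia Ugcg had the highest level of the 9, 22.9 ± 1.97 CPM per kb (SD, n = 5). St3gal5 (13.3), St8sia1 (13), St3gal2 (12.7) and St8sia3 (12.5) followed, each overlapping its neighbour in range. B4galnt1 stood below all of them at 7.96 ± 0.581 CPM per kb, with no overlap. B3galt4 (1.77) and St8sia5 (1.37) overlapped each other and lay lower again. Fut9, at 0.0845 ± 0.0297 CPM per kb, was the lowest, with 5 to 17 counts per library in this group, so its values carry the largest relative counting error.

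**Figure D1:**
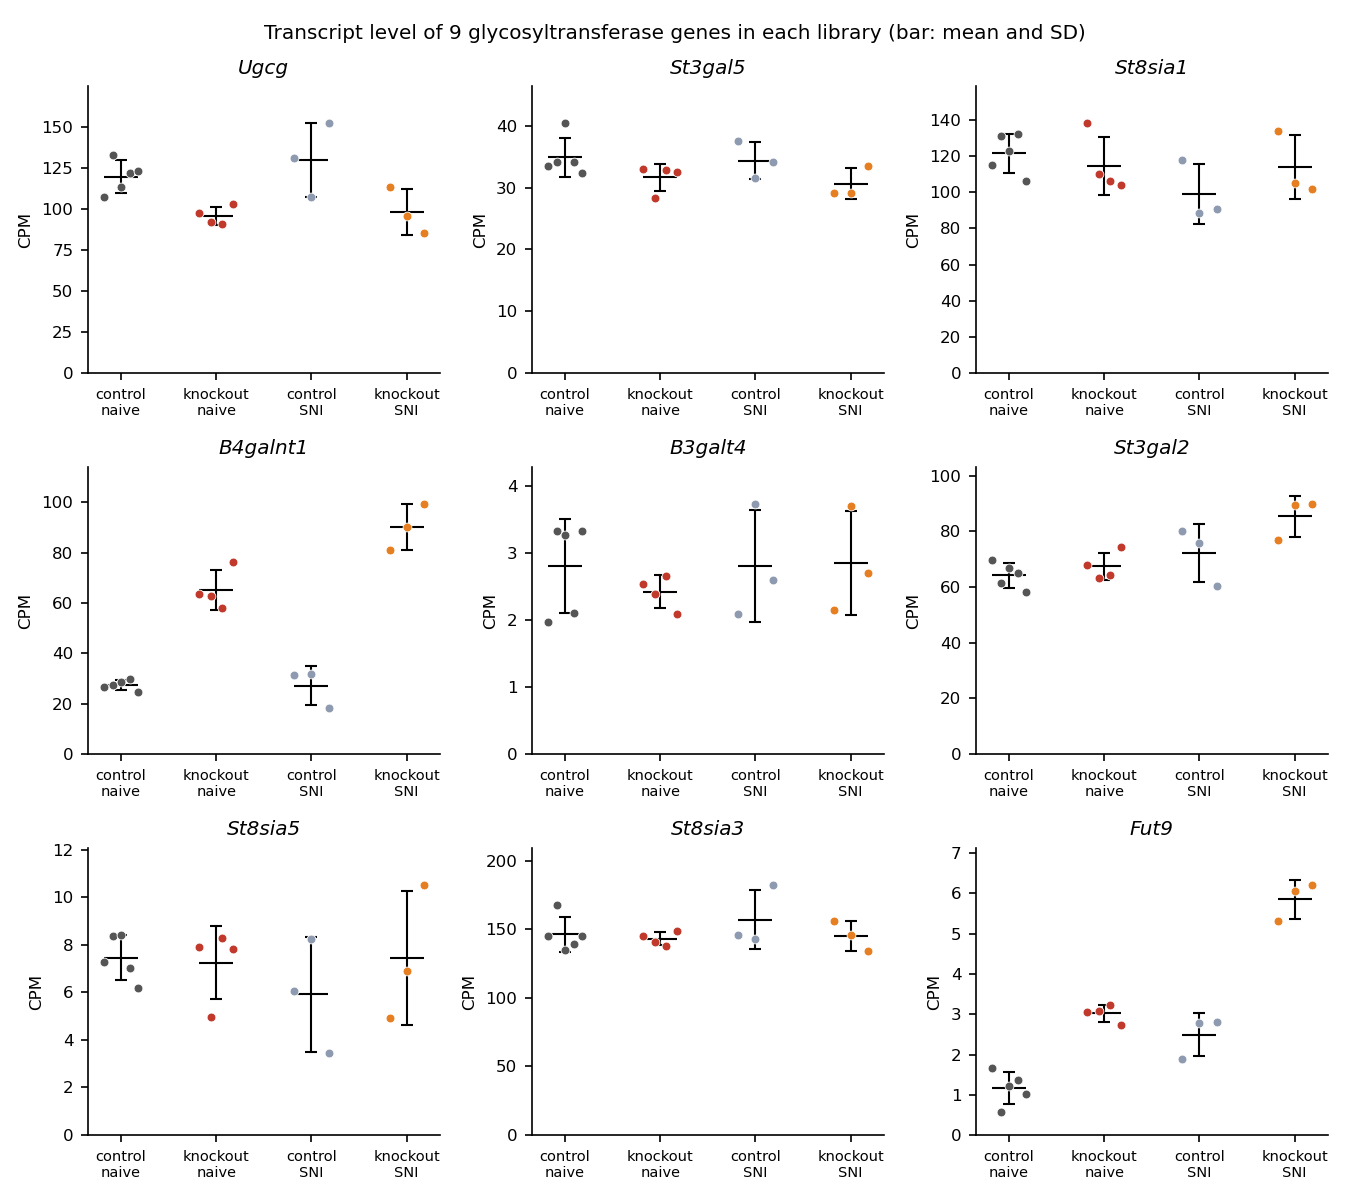
CPM (vertical axis, linear, from 0) of the 9 genes in each of 15 libraries (points) by genotype and injury, with the group mean and SD. B4galnt1 and Fut9 are higher in every knockout library than in every control library of the same injury state, whereas the other 7 genes show smaller differences. Of all tested genes, 9.63% in naive mice and 16.2% after SNI have genotypes that do not overlap.

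Ugcg, glucosylceramide synthase, lies at chr4:59189257-59222833 on GRCm38 (plus strand). In naive controls it measured 107, 133, 113, 122 and 123 CPM, and in naive knockouts 97.3, 92.0, 91.0 and 103 CPM. In injured controls it measured 131, 107 and 152 CPM and in injured knockouts 113, 95.7 and 85.2 CPM. All 4 naive knockout libraries lay below all 5 naive controls, while the injured groups overlapped. The difference did not pass the test in either state: the log2 fold change was -0.32 in naive mice (95% interval -0.54 to -0.10, edgeR quasi-likelihood adjusted p = 0.174) and -0.41 after SNI (-0.68 to -0.14, adjusted p = 0.118). Over the alternatives tried the adjusted p ran from 0.00818 to 0.439 in naive mice and from 0.042 to 0.553 after SNI. It passed in naive mice without control SNI replicate 23 (adjusted p = 0.0433) or with only the naive groups fitted (0.00818), and after SNI without control SNI replicate 18 (0.042), so Ugcg stands near the threshold. In the naive comparison 9.63% of all tested genes had groups that do not overlap. With injury the log2 difference of Ugcg was 0.12 in controls (edgeR adjusted p = 0.647) and 0.03 in knockouts (edgeR adjusted p = 0.886).

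St3gal5, GM3 synthase, lies at chr6:72097592-72154571 (plus strand). Its group means were 34.9 ± 3.18 CPM in naive controls, 31.7 ± 2.22 in naive knockouts, 34.4 ± 3.04 in injured controls and 30.6 ± 2.50 in injured knockouts (SD, n = 5, 4, 3 and 3). The log2 difference between genotypes was -0.14 in naive mice (interval -0.33 to 0.05, edgeR adjusted p = 0.636) and -0.17 after SNI (-0.40 to 0.07, edgeR adjusted p = 0.378). The genotypes overlapped in both states, with 32.3 to 40.4 CPM in naive controls beside 28.4 to 33.0 CPM in naive knockouts.

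St8sia1, GD3 synthase, lies at chr6:142821545-142964452 (minus strand). It measured 115, 131, 123, 132 and 106 CPM in naive controls and 138, 110, 106 and 104 in naive knockouts. After SNI it measured 118, 88.3 and 90.9 CPM in controls and 134, 105 and 102 in knockouts. Every pair of groups overlapped. The 8mer of miR-182-5p in its UTR was not accompanied by a called difference between genotypes: the log2 difference was -0.08 in naive mice (interval -0.33 to 0.16, edgeR adjusted p = 0.891) and 0.19 after SNI (-0.11 to 0.49, edgeR adjusted p = 0.421). Within controls the log2 difference with injury was -0.29 (interval -0.56 to -0.02, edgeR adjusted p = 0.285), which passed only without control SNI replicate 15 (-0.44, edgeR adjusted p = 0.0487). Gm7457 overlaps St8sia1 on the opposite strand, with 1248 counts against 16190 and group means from 7.93 to 9.17 CPM.

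B4galnt1, at chr10:127165225-127172330 (plus strand), measured 26.5, 27.6, 28.7, 30.0 and 24.7 CPM in naive controls and 63.6, 62.9, 57.9 and 76.4 CPM in naive knockouts. In injured controls it measured 31.4, 31.9 and 18.1 CPM and in injured knockouts 81.0, 90.1 and 99.2 CPM. Every knockout library was above every control library, with the lowest knockout, 57.9 CPM, well clear of the highest control, 31.9 CPM. The genotypes did not overlap for 9.63% of all tested genes in naive mice and for 16.2% after SNI. The fitted fold change of knockout against control was 2.37 in naive mice (log2 1.24, SE 0.131) and 3.26 after SNI (log2 1.71, SE 0.164). The low injured control, 18.1 CPM, is control SNI replicate 23. Without it the log2 difference after SNI was 1.52 (SE 0.122).

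Beside the Wnt1-Cre controls, the naive wt library had 24.7 CPM of B4galnt1 against 26.5 to 30.0 CPM in the 4 naive Wnt1-Cre libraries. Among injured controls the Wnt1-Cre library had 31.4 CPM and the wt libraries 31.9 and 18.1 CPM. Within knockouts the 3 injured libraries lay above the 4 naive ones (log2 0.47, SE 0.144). Groups did not overlap in this comparison for 34.2% of all tested genes. Within controls the log2 difference with injury was 0.01 (SE 0.148), and 0.21 (SE 0.112) without control SNI replicate 23. The difference between the 2 injury effects was 0.46 (SE 0.207) and 0.28 (SE 0.148) without that library. This contrast contains the injured values by which B4galnt1 was chosen, so it is a description only. Slc26a10 overlaps B4galnt1 on the opposite strand, and the strand setting of the counting is not given in the sources used here. It held 150 counts in all against 7146 for B4galnt1, with group means from 0.879 to 1.46 CPM.

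B3galt4, the next enzyme after B4galnt1, lies at chr17:33949909-33951488 (minus strand). It was expressed at a low level, 1.97 to 3.33 CPM in naive controls, 2.09 to 2.66 in naive knockouts, 2.09 to 3.72 in injured controls and 2.15 to 3.69 in injured knockouts, with 12 to 39 counts per library. The groups overlapped throughout. The log2 difference between genotypes was -0.20 in naive mice (interval -0.70 to 0.30, edgeR adjusted p = 0.864) and 0.03 after SNI (-0.59 to 0.64, edgeR adjusted p = 0.967). A difference of the size seen in B4galnt1 lies outside both intervals.

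St3gal2, at chr8:110919922-110972480 (plus strand), was the only one of the 7 function-listed genes called in any comparison. It measured 67.9, 63.4, 64.2 and 74.3 CPM in naive knockouts and 76.8, 89.6 and 89.7 in injured knockouts, groups that do not overlap. The same was so for 34.2% of all tested genes in that comparison. St3gal2 rose with injury in knockouts by 0.34 on the log2 scale (interval 0.12 to 0.56, edgeR adjusted p = 0.046). That is 1 of 7 genes in a comparison in which 10.1% of all tested genes were called. The call was lost in 8 of 21 alternatives, including the omission of any of 5 knockout libraries in turn, with adjusted p up to 0.188 without knockout SNI replicate 19. In controls it measured 69.8, 61.4, 66.7, 65.0 and 58.3 CPM in naive mice and 80.2, 75.9 and 60.4 CPM after SNI, a log2 difference of 0.17 (edgeR adjusted p = 0.418). The difference between the 2 injury effects, 0.17, had an edgeR adjusted p of 0.584. Between genotypes the log2 difference was 0.07 in naive mice (edgeR adjusted p = 0.887) and 0.24 after SNI (edgeR adjusted p = 0.218). The antisense gene Gm26816 overlaps St3gal2 and had group means from 10.1 to 11.7 CPM.

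St8sia5 and St8sia3, both on chromosome 18 (chr18:77185839-77258771 and chr18:64254359-64279611, plus strand), had levels that overlapped in all groups. St8sia5 measured 6.18 to 8.40 CPM in naive controls, 4.96 to 8.27 in naive knockouts, 3.45 to 8.26 in injured controls and 4.93 to 10.5 in injured knockouts. Its log2 difference between genotypes was -0.04 in naive mice (interval -0.52 to 0.44, edgeR adjusted p = 0.983) and 0.28 after SNI (-0.32 to 0.89, edgeR adjusted p = 0.574). St8sia3 was the steadiest gene of the 9 in naive knockouts, 143 ± 4.91 CPM (SD, n = 4) against 147 ± 12.6 (n = 5) in naive controls. After SNI it measured 157 ± 21.4 CPM in controls and 145 ± 10.8 in knockouts (n = 3 each). Its genotype differences were -0.03 (interval -0.22 to 0.15, edgeR adjusted p = 0.948) and -0.11 (-0.33 to 0.12, edgeR adjusted p = 0.56), and its UTR holds 2 miR-96-5p 8mers. St8sia3 counts are less certain because the antisense gene St8sia3os overlaps it with 5767 counts against 20667. Gm7276 and Gm15957 overlap St8sia5 on the opposite strand, with 84 counts together against 1027.

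Fut9, at chr4:25609332-25800244 (minus strand), measured 1.67, 0.574, 1.21, 1.37 and 1.02 CPM in naive controls and 3.05, 3.07, 3.23 and 2.74 CPM in naive knockouts. In injured controls it measured 1.88, 2.79 and 2.81 CPM and in injured knockouts 5.31, 6.06 and 6.20 CPM. The 4 groups thus stood in the order naive control, injured control, naive knockout and injured knockout, and the middle 2 overlapped. Knockout against control the fold was 2.55 in naive mice (log2 1.35, SE 0.229) and 2.39 after SNI (95% interval on the log2 scale 0.72 to 1.79). Injury against naive it was 2.06 in controls (log2 1.04, SE 0.263) and 1.93 in knockouts (log2 0.95, SE 0.222). The difference between the injury effects was -0.10 (SE 0.33). The 4 log2 differences of Fut9 thus lay between 0.95 and 1.35, while those of B4galnt1 were 1.24 and 1.71 between genotypes and 0.01 and 0.47 with injury. In the library with the fewest, Fut9 had 5 counts, and without the wt controls, which leaves 1 injured control with 18 counts, the log2 difference after SNI was 1.64 (SE 0.377) and that with injury in controls 0.63 (SE 0.405). Without control SNI replicate 23 alone these were 1.34 (SE 0.283) and 0.98 (SE 0.294).

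**Figure D2:**
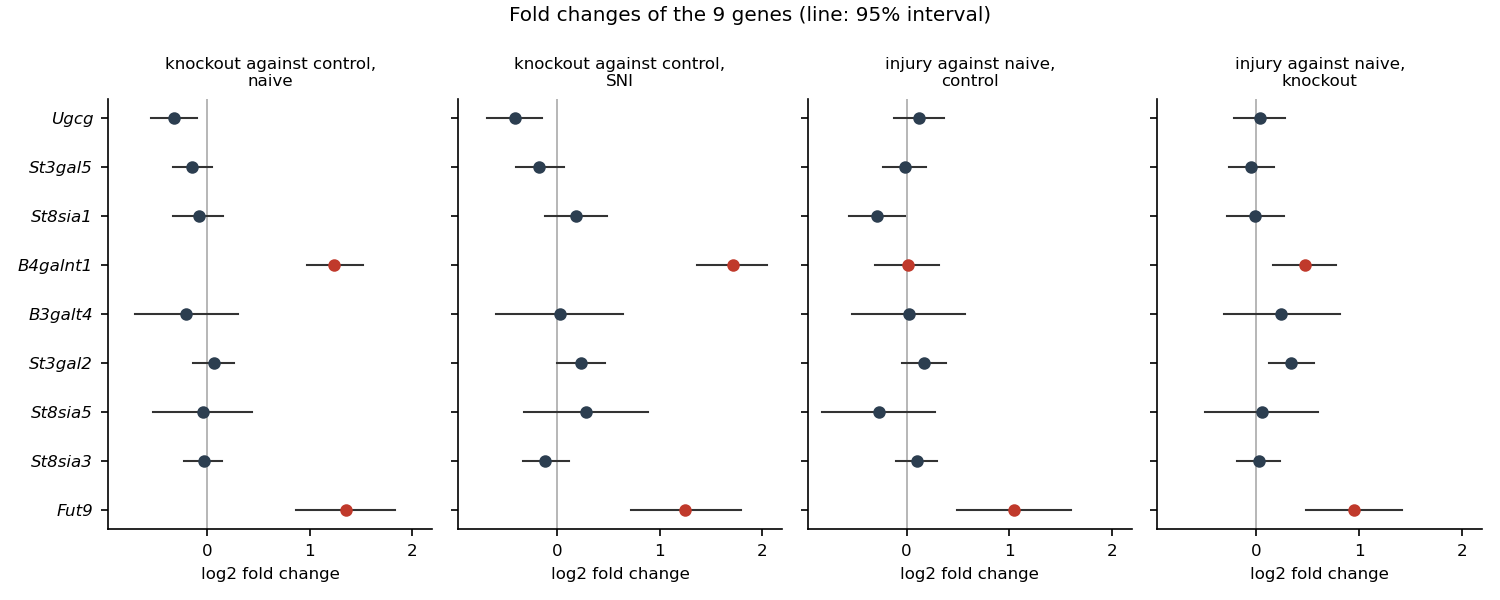
Log2 fold change (horizontal axis) of the 9 genes in 4 comparisons, with 95% intervals from the edgeR fit. The points (red) and intervals of B4galnt1 and Fut9 are a description, not a test. Their points lie at 1.24 to 1.71 in both knockout comparisons, while the 7 other genes lie between -0.41 and 0.28 there.

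Of the 7 genes listed for function, 0 were called by edgeR between genotypes in naive mice, where 1.89% of all tested genes were called, and 0 after SNI, where 1.04% were. DESeq2 and limma-voom also called 0 of the 7 in both states. At an unadjusted p under 0.05 there were 1 of 7 in naive mice (Ugcg), beside 11.7% of all tested genes, and 2 of 7 after SNI (Ugcg and St3gal2), beside 22.7%. Their median log2 difference was -0.08 in naive mice and 0.03 after SNI, beside medians of 0.00 and -0.01 over all tested genes. For injury in controls 0 of 7 were called, where 2.48% of all tested genes were, also by DESeq2 and limma-voom, with 1 of 7 at an unadjusted p under 0.05 (St8sia1), beside 15.7% of all tested genes. With injury the log2 differences of the 7 ran from -0.29 (St8sia1) to 0.17 (St3gal2) in controls and from -0.05 (St3gal5) to 0.34 (St3gal2) in knockouts. Without control SNI replicate 23, 0 of the 7 were called by edgeR after SNI or with injury in controls, where they ran from -0.28 (Ugcg) to 0.14 (St3gal2) and from -0.23 (St8sia1) to 0.29 (St3gal2, edgeR adjusted p = 0.0799). Groups that do not overlap were found for 1 of the 7 between naive genotypes (Ugcg), 0 after SNI, 0 for injury in controls and 1 for injury in knockouts (St3gal2). Over all tested genes these shares were 9.63%, 16.2%, 8.21% and 34.2%. For the difference between the injury effects 0 of 7 were called, and 0 (0%) of all 16976 genes. At an unadjusted p under 0.05, there were 0 of the 7 and 2281 of all genes (13.4%), DESeq2 called 12 genes and limma-voom 0.

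Around the 9 genes, 81 further genes in 6 lists cover the supply of ceramide, the lactosylceramide step and sister glycolipid branches, the other sialyltransferases, the supply of activated sialic acid, the breakdown of glycolipids, and fucose and neural glycan epitopes. The filter on low counts removed 10 (Sptlc3, Cers1, Cers3, St6galnac1, Nanp, Neu2, Neu4, Fut1, Fut2 and Fut7), leaving 71 tested. These lists too were chosen with earlier results of these data known. Their called shares are therefore a description beside the share over all tested genes.

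Between genotypes in naive mice, 2 of the 71 were called, both higher in knockouts. That is 2.82%, beside 1.89% of all tested genes. Chst10, the sulfotransferase that completes the HNK-1 glycan epitope, measured 10.3, 8.38, 9.15, 9.38 and 10.2 CPM in naive controls and 20.8, 19.6, 21.3 and 21.3 in naive knockouts. The naive groups were far apart, and Chst10 rose by 1.13 on the log2 scale (SE 0.119, edgeR adjusted p = 5.5e-05). Slc35a1, the transporter that carries activated sialic acid into the Golgi, measured 18.2, 18.6, 20.7, 17.7 and 18.9 CPM in naive controls and 29.7, 26.9, 29.2 and 27.4 in naive knockouts. It rose by 0.59 (SE 0.124, edgeR adjusted p = 0.0203), a call lost when any of 8 of the 9 naive libraries was left out (the highest edgeR adjusted p, 0.0748, came with knockout naive replicate 4 omitted). Fut10, a fucosyltransferase, had a log2 difference of 1.36 that was not called (edgeR adjusted p = 0.0872), with 2.41 ± 1.19 CPM in naive controls (n = 5) and 6.26 ± 0.907 in naive knockouts (n = 4). It is named because its values stood out. Median log2 was 0.00 over the 71 genes and 0.00 over all tested genes.

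After SNI, 3 of the 71 were called between genotypes, or 4.23% beside 1.04% of all tested genes. Chst10 measured 10.7, 12.7 and 7.98 CPM in injured controls and 20.2, 25.5 and 24.7 in injured knockouts, and rose by 1.14 (SE 0.147, edgeR adjusted p = 0.00101). St6galnac6, an enzyme that adds sialic acid to make alpha-series gangliosides, measured 51.5, 52.4 and 40.1 CPM in injured controls and 74.7, 70.1 and 78.3 in injured knockouts, and rose by 0.62 (SE 0.117, edgeR adjusted p = 0.0161). Its naive difference, 0.27, was not called (edgeR adjusted p = 0.211).

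St6gal2, which adds sialic acid to glycoproteins, measured 23.3, 18.5 and 31.3 CPM in injured controls and 14.8, 12.5 and 14.6 in injured knockouts. It was the only one of the 71 called lower in either genotype comparison, and fell by 0.78 on the log2 scale (SE 0.168, edgeR adjusted p = 0.0335). With only the 6 injured libraries fitted, edgeR called 0 genes in all, and adjusted p was 0.298 for Chst10, 0.49 for St6galnac6 and 0.553 for St6gal2. St6galnac6 was also lost without knockout SNI replicate 21 (edgeR adjusted p = 0.0804) and without the wt controls (0.127). The St6gal2 call was lost in 14 of 21 alternatives. These include limma-voom, the fit without the wt controls and the omission of any of 11 single libraries, among them control SNI replicate 23 (log2 -0.57, edgeR adjusted p = 0.0743) and each injured knockout (adjusted p up to 0.169 without knockout SNI replicate 19). The count of 3 called genes became 16 without control SNI replicate 15, which leaves 2 wt controls, 1 without knockout SNI replicate 21, 2 without control SNI replicate 23 and 7 by DESeq2. Chst10 was among the genes called in these 4 fits.

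Slc35a1 after SNI measured 18.5, 20.6 and 32.6 CPM in controls, the last in replicate 23, and 24.6, 24.6 and 25.3 CPM in knockouts, a log2 difference of 0.09 (edgeR adjusted p = 0.772). Without replicate 23 the injured groups do not overlap and the log2 difference was 0.35 (SE 0.104, edgeR adjusted p = 0.136). Replicate 23 was the highest of all 15 libraries for Slc35a1, the highest injured control for Ugcg and St6gal2, and the lowest injured control for B4galnt1, Chst10, St6galnac6 and St3gal2.

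**Figure D3:**
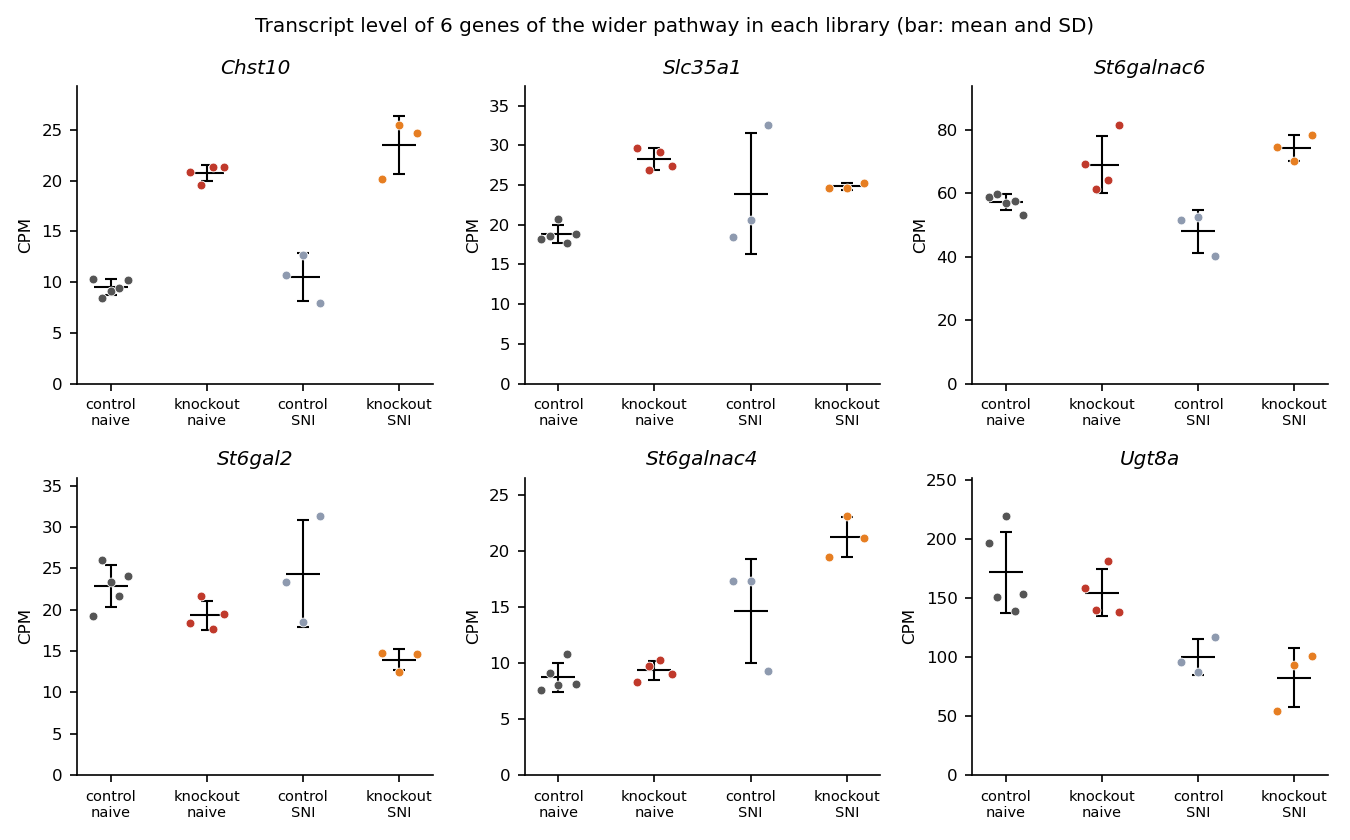
CPM (vertical axis, linear, from 0) of 6 genes of the wider pathway in each library (points), with the group mean and SD. Chst10 is about as high in injured as in naive knockouts (23.5 and 20.8 CPM on average), and Ugt8a is lower in both injured groups (82.6 to 100 CPM) than in naive ones (154 to 172 CPM).

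By list, the called genes of the genotype comparisons were found among the fucose and neural glycan epitopes (1 of 17 tested in each state, Chst10), the sialic acid supply (1 of 6 in naive mice, Slc35a1) and the other sialyltransferases (0 of 14 in naive mice, 2 of 14 after SNI). Over all tested genes 1.89% were called in naive mice and 1.04% after SNI. The calls of Slc35a1, St6gal2 and St6galnac6 were lost in 8, 14 and 3 of 21 alternatives, and that of Chst10 after SNI in 1. Among the genes of ceramide synthesis (11 tested), of the lactosylceramide step and sister branches (8) and of glycolipid breakdown (15), 0 were called by edgeR in either state. DESeq2 called 0 of them in naive mice and 3 after SNI (Sptlc1, Sptssa and Psap), and limma-voom 0. At an unadjusted p under 0.05 these lists held 0, 2 and 0 genes in naive mice, beside 11.7% of all tested genes, and 5, 0 and 5 after SNI, beside 22.7%. The ceramide list had a median log2 difference of -0.15 after SNI, beside -0.01 over all tested genes. Sptlc1, a subunit of the enzyme that starts sphingolipid synthesis, had 43.5 ± 4.08 CPM in injured controls and 34.5 ± 2.09 in injured knockouts (n = 3 each; log2 -0.33, edgeR adjusted p = 0.105).

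**Figure D4:**
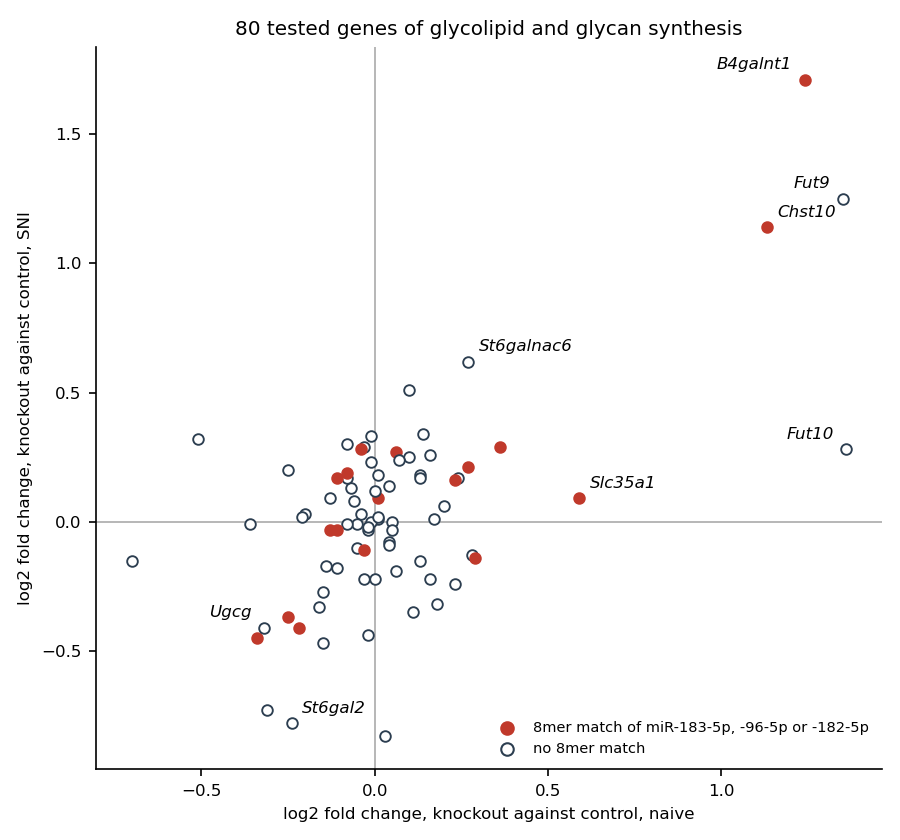
Log2 fold change of knockout against control in naive mice (horizontal axis) and after SNI (vertical axis) for the 80 tested genes, filled where the 3′ UTR holds an 8mer of a deleted microRNA. B4galnt1, Fut9 and Chst10 lie above 1 on both axes, and most filled points lie near 0 beside the open ones.

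Seed matches in the wider lists were counted the same way. An 8mer was held by 14 of the 71 genes (19.7%), beside 9.33% of tested genes with a UTR. These shares are not matched for UTR length. Taking the members other than B4galnt1 and Fut9 together with the tested pathway genes, 17 had an 8mer and 61 had none. The median log2 difference in naive mice was -0.03 with an 8mer and -0.01 without. Of the 17, 2 were called, both higher, and 0 of the 61, beside 1.89% of all tested genes. The Slc35a1 call, 1 of these 2, was lost with any of 8 naive libraries left out. After SNI the medians were 0.09 and -0.00, with 1 of 17 called higher, and 1 of 61 called higher and 1 lower, beside 1.04% of all tested genes. The 2 genes with an 8mer that were called, Chst10 and Slc35a1, hold one for miR-96-5p, as B4galnt1 does. Of tested genes with a UTR of like length, 6.46% hold a miR-96-5p 8mer for Chst10 (4110 bases) and 1.49% for Slc35a1 (849 bases). The 6 other genes of these lists with a miR-96-5p 8mer (St8sia3, St3gal6, St6galnac3, St6galnac5, St8sia6 and Fut4) were not called. Their log2 differences in naive mice ran from -0.34 in St3gal6 to 0.36 in St8sia6. The other genes called in the genotype comparisons, St6galnac6 and St6gal2, had none of the 3 kinds of match.

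With injury in controls, 2 of the 71 genes were called, 2.82% beside 2.48% of all tested genes. St6galnac4, a sialyltransferase, measured 7.58 to 10.8 CPM in naive controls and 17.3, 17.3 and 9.28 CPM in injured controls, and rose by 0.78 on the log2 scale (edgeR adjusted p = 0.0199). The low value is replicate 23, without which the log2 difference was 0.99 (edgeR adjusted p = 0.000156), and the call was lost without control SNI replicate 18 (edgeR adjusted p = 0.117). The count of 2 became 0 without that library, 7 without control SNI replicate 15 and 4 without control SNI replicate 23. Ugt8a, the enzyme that makes the galactosylceramide of myelin, fell by 0.78 from 172 ± 34.2 CPM (n = 5) to 100 ± 15.3 (n = 3; edgeR adjusted p = 0.0477). That call was lost in 15 of 21 alternatives, with adjusted p up to 0.289 without the wt controls. The summed myelinating Schwann cell markers ran from 8346 to 12688 CPM in naive controls and from 6919 to 7519 CPM in injured controls, and their part in the Ugt8a value was not tested.

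With injury in knockouts, 6 of the 71 were called, 8.45% beside 10.1% of all tested genes. St6galnac4 rose by 1.19 (edgeR adjusted p = 0.000438), from 9.33 ± 0.839 CPM (n = 4) to 21.3 ± 1.82 (n = 3). Cers6, a ceramide synthase, rose by 0.65 (edgeR adjusted p = 0.00442), from 26.1 ± 2.63 to 41.0 ± 1.48 CPM. St8sia2, which makes polysialic acid on the neural cell adhesion molecule, rose by 1.07 (edgeR adjusted p = 0.0445), from 0.845 ± 0.221 to 1.82 ± 0.245 CPM. This rests on few reads, 4 to 10 counts per naive knockout library and 14 to 22 per injured knockout library. Psap, the precursor of the saposins that help to degrade glycolipids, rose by 0.33 (edgeR adjusted p = 0.0476). Ugt8a fell by 0.90 (edgeR adjusted p = 0.0121), from 154 ± 19.8 to 82.6 ± 25.3 CPM. Cmas, which activates sialic acid, fell by 0.30 (edgeR adjusted p = 0.0486), from 135 ± 7.05 to 110 ± 4.90 CPM.

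Of these 6, St6galnac4, Cers6 and Ugt8a passed in all 21 alternatives, with adjusted p up to 0.0426 for Ugt8a, whereas St8sia2, Psap and Cmas were lost in 12, 13 and 13. The count of 6 became 15 without control SNI replicate 23 and 3 without knockout SNI replicate 19. Myelinating Schwann cell markers summed to 9185 to 10723 CPM in naive knockouts and 5592 to 10646 in injured knockouts. For the difference between the injury effects 0 of the 71 were called, with 8 at an unadjusted p under 0.05 (beside 13.4% of all tested genes), and DESeq2 and limma-voom called 0 of the 71.

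Across the 15 libraries, the genes whose log2 CPM followed that of B4galnt1 most closely, among 13654 genes, were Nova2 (r = 0.971), Ankrd27 (0.971), Mob3a (0.970), Cacnb1 (0.970) and Rasgrf1 (0.969). For Fut9 they were Nova1 (0.916), Slc39a1 (0.913), Zeb1 (0.908), Nus1 (0.907) and Camk2n1 (0.902). These are descriptions over libraries that share the group differences. After the group means were taken out, r fell to between 0.63 and 0.86 for the B4galnt1 genes and between 0.12 and 0.38 for the Fut9 genes. The ranks are close together: without control SNI replicate 23, 3 of the 5 named for B4galnt1 and 0 of the 5 for Fut9 stayed among the first 5. B4galnt1 and Fut9 themselves had r = 0.77 over the 15 libraries, and -0.15 after the group means were taken out. Chst10 had r = 0.97 with B4galnt1, and 0.68 after that step. All r after that step include control SNI replicate 23, and they were not computed without it. In that library log2 CPM was 4.20 for B4galnt1, beside 4.98 and 5.01 in the other injured controls. For Chst10 it was 3.03, beside 3.45 and 3.69. The r after that step may therefore rest largely on 1 library.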

How the data were processed

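Whole lumbar DRG from 15 mice were profiled by bulk RNA sequencing. Per the labels' protocols, RNA came from Trizol extraction and libraries from a stranded mRNA kit. The deposited values are whole-number counts of reads per gene, not normalised by the authors. Per the submitters' processing notes, reads were handled with TopHat2 2.0.4 and HTSeq 0.6.1 on GRCm38, and SAMtools, Cufflinks and DESeq2 are also named. For the counting, neither the strand setting nor the annotation release is given in the sources used here. Counting reads that overlap 2 genes, or that match several places, can shift levels of genes with antisense partners.

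Symbols, exon lengths and 3′ UTRs came from GENCODE M21, and microRNA sequences from RefSeq; 37607 of 39179 identifiers had a symbol. edgeR 4.0.16 (R 4.3.3) was fitted with 4 group means over the 15 libraries, TMM factors and a robust quasi-likelihood F test, after filterByExpr with a minimum count of 10. This kept 16976 of 27310 genes with a count, left out 0.131% of counts, and gave 11 residual degrees of freedom and a common biological coefficient of variation of 15.3%. A gene was called at a two-sided Benjamini-Hochberg adjusted p under 0.05 over all 16976. The SE is the log2 fold change divided by the square root of F, and intervals use the t distribution of the fit. The p-values set a difference between groups against the spread between these animals. That spread was estimated from all 4 groups together, with information shared between genes. Recovery of known changes was tested on simulated data. The shallowest library had 5252920 counts, where a count of 3 corresponds to 0.571 CPM, and such floors cover counting error only.

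The members and the gene lists were chosen with earlier results of these data known. Named beyond the 9 genes are every called gene of the 6 pathway lists in the knockout comparisons, up to 6 called genes with the smallest p in each direction with injury, and the 5 genes of highest Pearson correlation (mean of at least 1 CPM, prior count 2). Fut10, and the genes that only an alternative called, were named after their values were seen. 3′ UTRs were limited to protein-coding transcripts after the longest one of B4galnt1 was seen to belong to another kind of transcript. Of the 8 cell marker lists, fibroblast markers summed to 999 to 2353 CPM, satellite glia markers to 2754 to 4319, endothelial markers to 71.4 to 134 and adipocyte markers to 3.05 to 125 CPM over all libraries. Alternatives were DESeq2 1.42.0, upper quartile factors, limma-voom 3.58.1, no filter, only the groups compared, no wt controls, each library left out in turn, and other UTR choices.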

Additional observations from a re-analysis of the deposited data

Results flagged for a closer look

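Within groups of 4 or 5 libraries, the gap between an extreme library and its nearest neighbour was screened for 19 genes, 38 groups in all, and 3 groups were flagged because 1 library stood far from the others. Chance flags about 1 in 20 groups. St3gal5 measured 40.4 CPM in control naive replicate 3, where the nearest of the other 4 libraries had 34.2 CPM. St3gal5 measured 28.4 CPM in knockout naive replicate 5, where the nearest of the other 3 had 32.5 CPM. St8sia5 measured 4.96 CPM in the same library, knockout naive replicate 5, where the nearest had 7.84 CPM. Neither gene was called by edgeR in any comparison. B4galnt1 and Fut9 were not flagged, and groups of 3 libraries were not screened.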

How the results depend on the processing

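No paired analysis was possible because the replicate numbers are unique to each library and no number is shared between groups. No called result reversed in direction. Log2 fold changes of B4galnt1 with 1 library left out ran from 1.16 to 1.30 between genotypes in naive mice and from 1.52 to 1.83 after SNI, and those of Fut9 from 1.20 to 1.51 and from 1.07 to 1.38. Without the wt controls, Fut9 was 1.64 after SNI and its difference between the injury effects, which has no call, went from -0.10 to 0.33.

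Counts of called genes moved, and the cause was not tested. Between genotypes in naive mice the 321 genes became 515 by DESeq2, 1017 with only the groups compared and 709 without the wt controls, and 151 to 708 with 1 library left out. The 2 pathway genes became 6 with only the groups compared, and 1 to 3 with 1 library left out. After SNI the 177 genes became 925 by DESeq2, 0 with only the groups compared and 74 without the wt controls, and 57 to 3558 with 1 left out (3558 without control SNI replicate 15). The 3 pathway genes became 7, 0 and 1 in that order, and 1 to 16.

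For injury in controls the 421 genes became 673, 213 and 259 in the same order, and 283 to 1506 with 1 left out. The 2 pathway genes became 4 by DESeq2, 1 with no filter, 0 with only the groups compared and 1 without the wt controls, and 0 to 7. For injury in knockouts the 1717 genes became 4438 with only the groups compared and 4745 without the wt controls, and 587 to 4409. The 6 pathway genes became 3 with no filter, 14 and 15, and 3 to 15. For the difference between the injury effects, 0 genes became 12 by DESeq2, 1 with no filter and 1 without the wt controls, and 0 to 1235 with 1 left out (1235 without control SNI replicate 15). The 0 pathway genes became 0 to 5.

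The counts of genes with an 8mer were 4 of 9 and 14 of 71 with every UTR choice. With Spearman correlation 0 of the 5 genes named for B4galnt1 and 2 of 5 for Fut9 stayed. Among the 9 genes, depth limits B3galt4 and Fut9 most, with 12 to 39 and 5 to 64 counts per library. Of the called pathway genes it limits St8sia2, with 4 to 10 counts per naive knockout library.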
